A study of Mus musculus with 3 samples.

Results

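Tumour MDSCs of alisertib-treated mice were compared with bone marrow neutrophils of wild-type mice, gene by gene, to describe which features of the tumour state the treated cells held relative to a marrow reference. MDSCs (myeloid-derived suppressor cells) are myeloid cells of tumour-bearing hosts that restrain T cells, and alisertib inhibits the mitotic kinase Aurora A. The comparison took every gene with at least 1 CPM (counts scaled to 1000000 per library, with factors given under processing) in either library, which kept 12778 of the 19723 genes in the count table, or 64.8%. Of these genes, 10216 reached 1 CPM in both libraries, 1441 in the alisertib library alone and 1121 in the marrow library alone. At the threshold, the lowest genes inside were Gm5578, Ppt2 and Praf2 with 21 counts each in the alisertib library, and the highest outside were Cryba4, Trmt11 and 4933417D19Rik with 23 counts each in marrow.

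RNA of 3 pooled cell sorts was sequenced, all from BALB/c females that were 6 to 8 weeks old. The alisertib library came from MDSCs of 20 tumours of treated mice, the control library from MDSCs of 20 tumours of control mice, and the marrow library from neutrophils of 5 wild-type mice. Each group was therefore 1 library without replicates, and no test across animals was possible. The labels describe the control mice both as control treated and as untreated, and do not give the tumour line, the dose or the markers of the sort, whose stated purity was above 90%. Between the alisertib and marrow libraries the tissue, the tumour and the drug all differed, and these cannot be told apart. The control library is therefore given beside many of the values, and every trio of values below is in the order alisertib, control, marrow. Both ratios over marrow share the marrow library and are not independent of each other.

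Neutrophils mature in the bone marrow, where precursors make primary, then secondary, then tertiary granule proteins in turn, and stop transcribing most of these genes before they leave. In tumours, MDSCs of the neutrophil lineage are known for arginase, nitric oxide synthase, checkpoint ligands and inflammatory mediators, and they meet low oxygen and nutrient stress. Several of these programs are switched on through short promoter motifs bound by NF-kappaB, interferon-activated factors, AP-1 and NRF2 related proteins, hypoxia-inducible factors and C/EBP proteins.

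The promoters of 6 genes whose levels are described below are shown because each holds a match to the motif of its program. They were chosen after the matches and the values were seen. The bases directly upstream of the start were taken from RefSeq on GRCm38.p6, are written 5′ to 3′ on the gene's strand, and end before the first base of the GENCODE gene model. Capitals mark matches on either strand to the NF-kappaB type motif, GGG and CC with any 5 bases between them, in Cxcl2 and Cxcl3, the interferon response type, GAAA repeated after any 2 bases, in Isg15, TGANTCA (AP-1 type) in Srxn1, ACGTG (hypoxia response core) in Egln3 and TTGCNNNAA (C/EBP type) in Ngp. Overlapping matches were each counted.
Cxcl2, chr5:90903649-90903870, plus strand: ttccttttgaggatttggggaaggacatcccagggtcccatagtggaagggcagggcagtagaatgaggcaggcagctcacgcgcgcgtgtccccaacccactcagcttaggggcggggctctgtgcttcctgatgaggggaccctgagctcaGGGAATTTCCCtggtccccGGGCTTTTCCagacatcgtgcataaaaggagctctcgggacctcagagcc
Cxcl3, chr5:90785851-90786100, plus strand: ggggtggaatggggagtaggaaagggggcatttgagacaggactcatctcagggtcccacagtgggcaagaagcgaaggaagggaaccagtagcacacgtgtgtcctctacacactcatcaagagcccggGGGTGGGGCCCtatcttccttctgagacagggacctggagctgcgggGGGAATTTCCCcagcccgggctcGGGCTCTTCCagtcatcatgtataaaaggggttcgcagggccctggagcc
Isg15, chr4:156200819-156201068, minus strand: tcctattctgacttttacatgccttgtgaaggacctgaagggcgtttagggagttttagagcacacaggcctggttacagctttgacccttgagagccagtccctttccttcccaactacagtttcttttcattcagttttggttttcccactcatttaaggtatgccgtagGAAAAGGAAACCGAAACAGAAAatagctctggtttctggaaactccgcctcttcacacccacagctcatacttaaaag
Srxn1, chr2:152105274-152105515, plus strand: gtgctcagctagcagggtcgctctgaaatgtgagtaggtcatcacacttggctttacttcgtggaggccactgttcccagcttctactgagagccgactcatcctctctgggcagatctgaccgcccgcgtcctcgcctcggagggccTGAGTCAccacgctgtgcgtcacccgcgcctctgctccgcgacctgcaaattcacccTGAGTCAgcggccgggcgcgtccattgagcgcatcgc
Egln3, chr12:54203875-54204124, minus strand: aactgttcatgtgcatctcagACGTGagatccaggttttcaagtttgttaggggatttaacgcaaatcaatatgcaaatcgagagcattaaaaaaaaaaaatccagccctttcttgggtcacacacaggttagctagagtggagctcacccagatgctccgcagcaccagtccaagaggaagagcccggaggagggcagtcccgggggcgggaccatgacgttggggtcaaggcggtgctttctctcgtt
Ngp, chr9:110419558-110419746, plus strand: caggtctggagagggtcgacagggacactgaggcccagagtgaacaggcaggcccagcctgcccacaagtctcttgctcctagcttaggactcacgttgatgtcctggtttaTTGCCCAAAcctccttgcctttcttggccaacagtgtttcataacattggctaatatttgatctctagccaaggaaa
Cxcl2 held 3 matches and Cxcl3 held 5, and both contained GGGAATTTCC, beginning 97 and 73 bases before the RefSeq start. Isg15 held 3 matches in a row, Srxn1 held TGAGTCA at 2 places, and Ngp held TTGCCCAAA 138 bases before its RefSeq start, which lies past the last base printed.

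These motifs were searched in the 250 upstream bases of 27025 RefSeq promoters, of which 9257 belonged to genes of the comparison. ACGTG was present in 16.6% of all promoters, in 23.9% of those of genes called higher with alisertib than in marrow and in 19% of those called lower, and in 13 of 22 hypoxia response genes. The interferon response type was present in 3.04% of all promoters, 3.71% of higher and 2.85% of lower genes, and in 19 of 35 interferon-stimulated genes. Among the 9257 genes of the comparison the shares were 22.1% for ACGTG and 2.83% for the interferon response type. The NF-kappaB type is a loose pattern, found in 45.4% of all promoters, in 61.4% of the 9257, in 62.2% of higher and 61.2% of lower genes and in 15 of 20 NF-kappaB genes. TTGCNNNAA was found in 8.28% of all promoters, 6.49% of the 9257, 5.88% of higher and 7.59% of lower genes, and in 6 of 22 secondary and tertiary granule genes. TGANTCA was found in 6.87% of all promoters, 4.67% of the 9257, 7.24% of higher and 4.19% of lower genes, and in 5 of 26 antioxidant genes. For these last 3 motifs, lists of other programs held larger shares. The NF-kappaB type was in 14 of 15 heat shock and 19 of 22 hypoxia response genes. TTGCNNNAA was in 7 of 15 MHC class I genes, and TGANTCA in 5 of 17 cytokine and 9 of 35 interferon-stimulated genes. A match is a string of letters and was not tested as a binding site.

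Across the 12778 genes, 2405 were higher (18.8%) and 2907 lower (22.8%) in the alisertib library than in marrow, 41.6% in all. A gene was called when the 95% counting interval of its ratio lay at least 2-fold from 1, and ranges in parentheses are these intervals, which cover counting error only. The median log2 ratio was -0.12, the central 90% of genes ran from -3.35 to 3.51, and 28.4% lay within 1.5-fold. With control in place of alisertib, 17.9% were higher and 23.4% lower, 41.3% in all, with a median of -0.17. Directly between the tumour libraries, 1.83% were higher and 1.12% lower with alisertib, 2.95% in all. Genes called higher than marrow held 47.4% of the alisertib library's counts and 9.53% of marrow's, and genes called lower held 9.96% and 50.2%, so the called genes accounted for most of the counts in both libraries. Of the called genes, 112 higher ones had no count in marrow and 61 lower ones had none with alisertib.

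**Figure D1:**
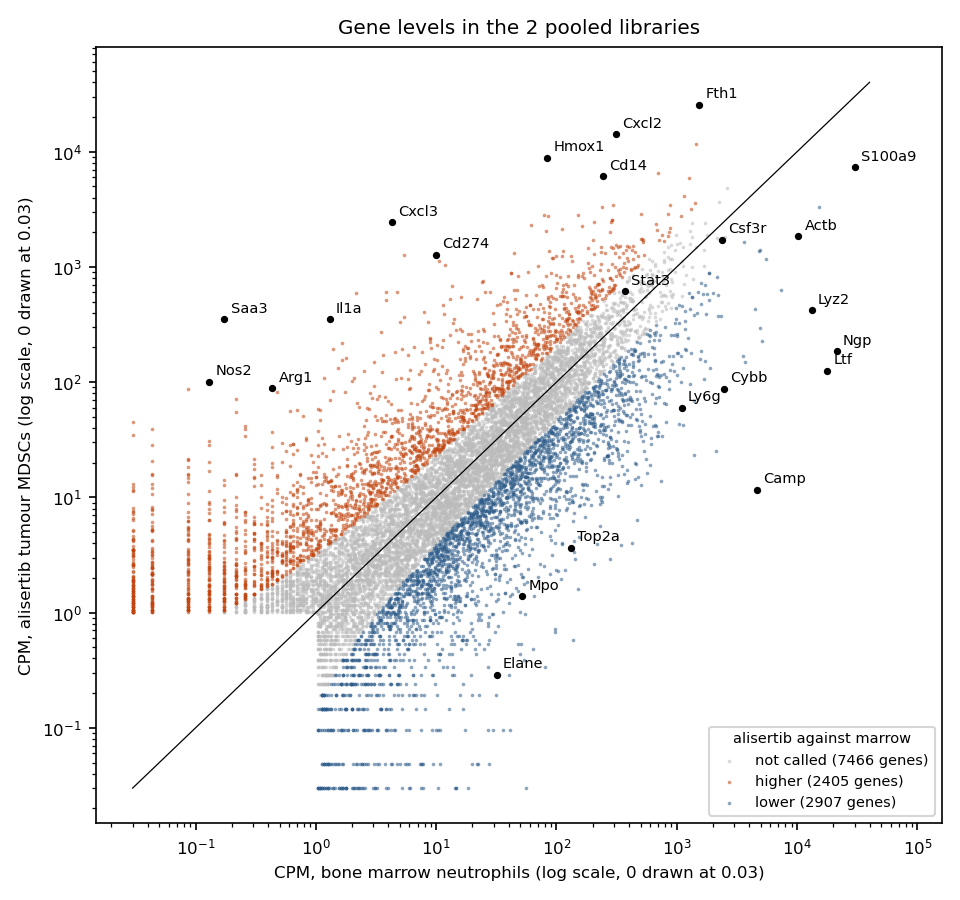
Level of each of the 12778 genes in the alisertib library (vertical axis, CPM, log scale) against the marrow library (horizontal axis, CPM, log scale), 1 point a gene, coloured by the call, with the diagonal marking equal levels and named genes in black. Saa3, Nos2 and Cxcl3 lie far above the diagonal, Camp, Ngp and Ltf far below it, and the straight lower left edge is the 1 CPM filter.

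The libraries held the markers of the neutrophil lineage. All 10 fixed neutrophil markers were measured, from 60.0 to 7363 CPM with alisertib and from 547 to 30389 CPM in marrow, and 8 were called lower with alisertib and none higher. The granulocyte colony-stimulating factor receptor Csf3r stood at 1725, 2226 and 2368 CPM, the integrin Itgam at 267, 391 and 547 CPM, and neither was called. Ly6g, the surface antigen of mouse neutrophils, was 18.3-fold lower (17.3 to 19.4) than in marrow, at 60, 82.2 and 1100 CPM. The calprotectin genes S100a8 and S100a9 were 4.56-fold lower (4.52 to 4.59) and 4.13-fold lower (4.1 to 4.15), against 1.74-fold lower and 1.71-fold lower in control.

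Markers of other cell types differed between the libraries, and in bulk RNA fewer cells of a type cannot be told apart from less RNA per cell. The summed level of the T and NK cell list was 154, 45.4 and 171 CPM, of which Cd3d alone was 6.21, 8.7 and 136 CPM, and 17 of 23 measured genes were called higher than marrow and 2 lower, 12 of the 23 having passed the filter through the alisertib library alone. In control, 4 of the 23 were higher than marrow and 2 lower, and 14 of the 23 were called higher with alisertib than in control. The summed level of the B and plasma cell list was 62.4, 10.5 and 277 CPM, with 14 of 20 lower, and 6 had passed through marrow alone. In control 19 of these 20 were lower than marrow, and 10 were called higher with alisertib than in control. Over all genes 1.83% were called higher with alisertib than in control. Eosinophil, basophil and mast cell markers summed to 69.1, 50.5 and 363 CPM, with 15 of 17 lower. Of these 17, 14 had passed through marrow alone, and the 3 at 1 CPM in both libraries had a median log2 ratio of 0.54. Erythroid and platelet markers summed to 50.1, 32 and 211 CPM, with 11 of 14 lower, 6 having passed through marrow alone. Summed levels were highest in marrow for each of these lists, but most of the marrow sum for T and NK cells was Cd3d, and most of the other members were higher with alisertib. In the alisertib library the NK genes Klrb1c and Ncr1, the B precursor genes Vpreb1, Igll1 and Dntt, the plasmacytoid marker Siglech and the basophil protease Prss34 were at 0. Monocyte and macrophage markers summed to 1158, 1075 and 719 CPM, with 13 of 22 higher and 5 lower (4 passed through alisertib alone), and dendritic cell markers to 100, 63.5 and 49 CPM, with 4 of 12 higher and 3 lower. Of the 12 dendritic cell genes, 2 had passed through alisertib alone and 4 through marrow alone. For the monocyte and dendritic cell lists the lower share was near the 22.8% over all genes. Epithelial and tumour cell markers summed to 657, 1745 and 7311 CPM, nearly all of it Lcn2, which neutrophils also make, fibroblast markers to 234, 341 and 225 CPM and endothelial markers to 59.3, 55.4 and 15.8 CPM.

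**Figure D2:**
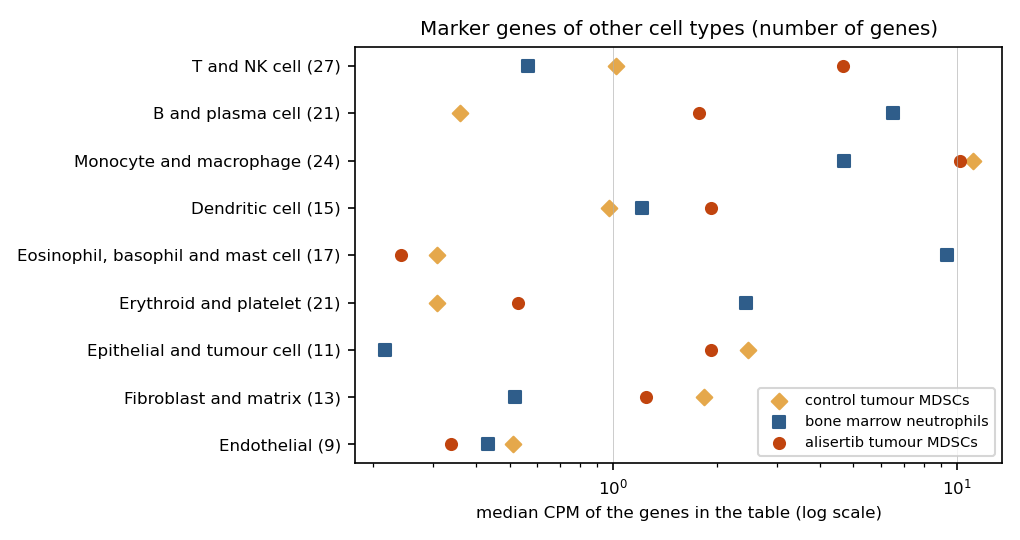
Median level (CPM, log scale) of the marker genes of 9 other cell types in each library, with the number of genes in the count table in parentheses. T and NK cell markers stand highest in the alisertib library, and B cell, eosinophil and erythroid markers highest in marrow.

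Within the lists of other cells, members lay on both sides of marrow. The macrophage complement gene C1qa (31, 21 and 5.98 CPM) and the lysosomal glycoprotein Cd68 (289, 345 and 24.3 CPM) were 5.16-fold and 11.9-fold higher than marrow. The inflammatory monocyte genes Ly6c2 (9.2, 12.9 and 240 CPM) and Ccr2 (5.44, 8.65 and 24.9 CPM) were instead 26-fold and 4.55-fold lower. Siglecf, a sialic acid binding receptor of eosinophils, was 5.76-fold higher (4.98 to 6.73) while the eosinophil granule gene Prg2 was 125-fold lower (71.3 to 275) and the basophil proteases Mcpt8 and Prss34 were 341-fold lower (118 to 3523) and at least 384-fold lower. The eosinophil ribonuclease genes Ear1 and Ear6 were 245-fold lower (84.4 to 2531) and 384-fold lower (103 to 22746), but have close copies that can share reads. Of 8 epithelial and tumour cell markers past the filter, 3 were higher and 2 lower, the lower share being near the 22.8% over all genes. The epithelial adhesion gene Epcam was at 3.52, 2.46 and 0 CPM and the keratin Krt18 at 7.95, 6.81 and 0.217 CPM, so both were present in the tumour libraries at a few CPM. The receptor gene Erbb3 was instead 4.37-fold lower (2.51 to 8.65). Cdh1 (6.17, 7.01 and 5.46 CPM) and the keratin Krt7 (2.51, 1.74 and 4.86 CPM) were not called. The part of these other cells in the results below was not tested.

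Granule genes were far below marrow in the alisertib library. Of 26 secondary and tertiary granule genes, all past the filter, 22 were called lower and 1 higher, with a median log2 ratio of -3.51 against -0.12 for all genes; in control the counts were 2 higher and 21 lower, median -2.31. The neutrophilic granule protein Ngp (ENSMUSG00000032484, chromosome 9, 110419747 to 110423012, plus strand), whose promoter is shown above, stood at 186, 1509 and 21372 CPM and was 115-fold lower (111 to 119). The iron-binding lactoferrin Ltf (ENSMUSG00000032496, chromosome 9, 111019271 to 111042767, plus strand) stood at 126, 571 and 17724 CPM and was 141-fold lower (136 to 147). The antimicrobial cathelicidin Camp (ENSMUSG00000038357, chromosome 9, 109847379 to 109849617, minus strand) stood at 11.7, 54.4 and 4609 CPM and was 395-fold lower (349 to 450). In all 3 genes marrow was highest, control intermediate and alisertib lowest, and the direct ratios to control were 8.13-fold lower (7.86 to 8.41), 4.54-fold lower (4.36 to 4.75) and 4.66-fold lower (4.05 to 5.38).

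The same order held for the collagenase Mmp8 at 149, 451 and 3717 CPM, the chitinase-like Chil3 at 23.3, 79.9 and 1402 CPM, the peptidoglycan binder Pglyrp1 at 68.3, 243 and 1378 CPM, the secreted resistin-like Retnlg at 296, 1468 and 4956 CPM and the annexin Anxa1 at 230, 674 and 5065 CPM. The gelatinase Mmp9 (1411, 1137 and 4880 CPM) was 3.46-fold lower than marrow but 1.24-fold higher than control, short of the call. Arginase 2, Arg2, a mitochondrial arginase that the list holds, was the member called higher, 3.83-fold higher (3.68 to 3.98).

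Primary granule genes were lower too: 9 of 13 were called lower and 1 higher (median -4.10, in control -4.21), but 6 of them passed the filter through marrow alone, and the median was -2.36 over the 7 at 1 CPM in both libraries. Myeloperoxidase, Mpo, stood at 1.4, 0.768 and 51.9 CPM and was 36.6-fold lower (25.7 to 55.7). Neutrophil elastase, Elane, stood at 0.289, 0.256 and 31.9 CPM and was 102-fold lower (50.5 to 302), and cathepsin G, Ctsg, had no count with alisertib and was at least 99-fold lower. Lysozyme, Lyz2, stood at 420, 545 and 13180 CPM. The exception was Ctsc, the protease that activates the granule serine proteases, at 138, 176 and 30.3 CPM and 4.56-fold higher (4.2 to 4.96). Of 19 genes of immature neutrophils, 15 were lower and 0 higher, with 4 passing through marrow alone (median -3.77, or -3.10 over those at 1 CPM in both). They included Cebpe, the transcription factor required for secondary granules, at 5.64, 4.97 and 229 CPM and 40.5-fold lower (33.8 to 49.2), and Fcnb, ficolin B, which was 139-fold lower (85.9 to 264).

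Genes of dividing cells were lower in both tumour libraries. Of 36 G2/M and mitosis genes, 34 were called lower than marrow and 0 higher, with a median of -3.57 (-4.55 in control), although 12 passed through marrow alone and the median over the other 24 was -3.06. Topoisomerase 2 alpha, Top2a, stood at 3.66, 4.04 and 133 CPM, the proliferation antigen Mki67 at 57.7, 51.1 and 326 CPM and cyclin A2, Ccna2, at 0.289, 1.02 and 40.3 CPM. Aurka, which encodes the target of alisertib, stood at 10.3, 9.68 and 27.1 CPM and was 2.64-fold lower (2.26 to 3.1) than marrow, with a ratio to control of 1.06-fold higher (0.868 to 1.3). The related kinase gene Aurkb, of the chromosomal passenger complex, was at 6 counts in each tumour library and was 62.2-fold lower (30.7 to 184). Of 29 G1/S genes, 13 were lower and 3 higher (median -0.85, in control 3 higher and 16 lower, median -1.54), with 5 passing through marrow alone. The higher ones included the sliding clamp Pcna at 239, 197 and 77.1 CPM and the licensing factor Cdt1 at 73.4, 60.1 and 14.8 CPM. Erythroid, B cell and basophil markers, given above, were also lower than marrow in the alisertib library, and their part in the mitotic and granule differences was not tested.

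Mature neutrophil receptors split in both directions, with 11 of 29 higher and 10 lower (median -0.45, in control 12 higher and 7 lower, median -0.09). The chemokine receptor Cxcr2 was 3.71-fold lower (3.6 to 3.82) at 255, 405 and 946 CPM, and the leukotriene receptor Ltb4r1 was 4.84-fold lower (4.58 to 5.12). The lipopolysaccharide co-receptor Cd14 was 25-fold higher (24.3 to 25.7) at 6091, 7883 and 244 CPM. The C-type lectins Clec4d and Clec4e, which recognise microbial glycolipids, were 8.86-fold and 8.6-fold higher, and the interleukin-1 antagonist Il1rn was 14.1-fold higher. The chemokine receptors lay on both sides of marrow: Ccr1 and Ccrl2 were 3.15-fold and 6.4-fold higher and Cxcr4 (367, 328 and 591 CPM) was not called. In the pattern recognition list 13 of 27 genes were higher and 4 lower (in control 15 higher and 3 lower, median 1.26), with Clec4n, which binds fungal mannans, 38.7-fold higher (33.6 to 44.9).

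**Figure D3:**
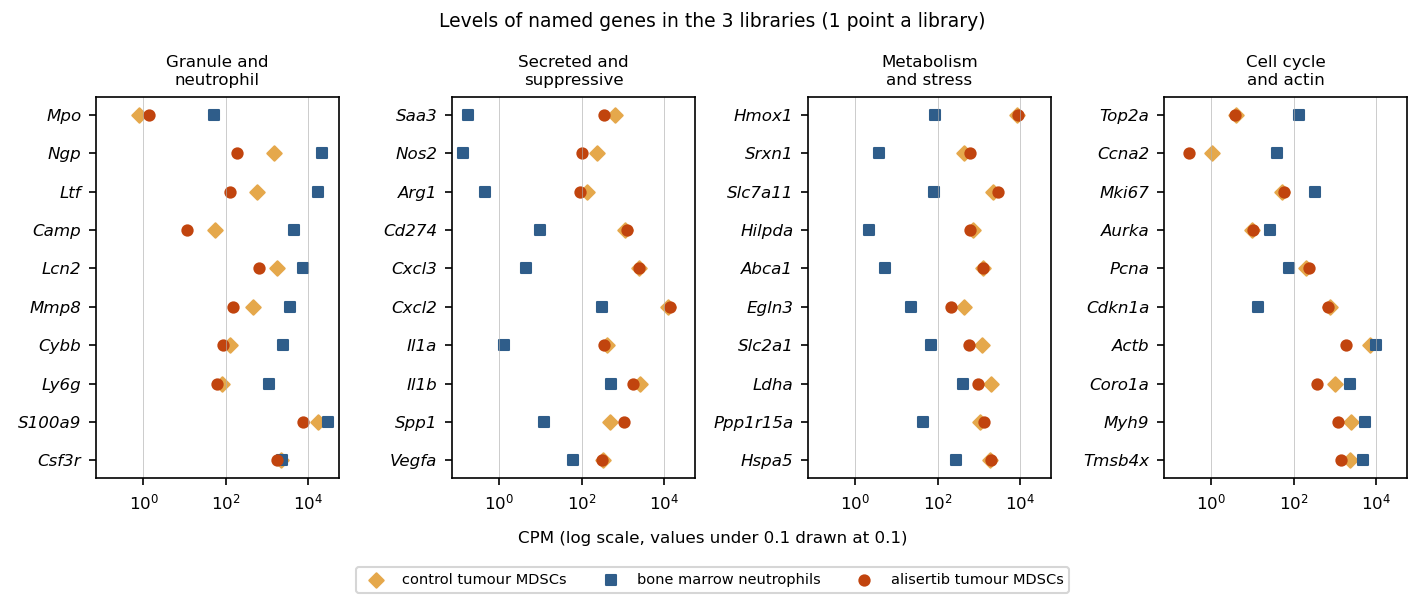
Level (CPM, log scale, values under 0.1 drawn at 0.1) of genes chosen after their values were seen to show the described groups, 1 point for each of the 3 libraries. In the granule panel the alisertib points lie below the control points and below marrow, except that Mpo is above control, and Csf3r differs least from marrow. In the secreted and metabolic panels both tumour libraries lie above marrow.

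Genes of suppressive function were higher than marrow in the alisertib library, 17 of 24 with 1 lower and a median of 2.27 (2.38 in control). Directly against control, 0 of the 24 were called higher and 2 lower, with a median of -0.32. The median was 1.94 over the 19 at 1 CPM in both libraries, the other 5 having passed through alisertib alone. Nos2, the inducible enzyme that makes nitric oxide (ENSMUSG00000020826, chromosome 11, 78920787 to 78960254, plus strand), had 2094, 4545 and 3 counts, and its ratio over marrow was 665-fold (265 to 3765). Arginase 1, Arg1 (ENSMUSG00000019987, chromosome 10, 24915221 to 24927484, minus strand), had 1830, 2584 and 10 counts and was 194-fold higher (110 to 425). Marrow was close to 0 for both, and alisertib lay below control, 2.31-fold lower (2.19 to 2.43) for Nos2. The PD-L1 gene Cd274 (ENSMUSG00000016496, chromosome 19, 29367455 to 29388095, plus strand) stood at 1280, 1100 and 9.88 CPM and was 129-fold higher (114 to 148). The second PD-1 ligand, Pdcd1lg2, had 586, 467 and 1 counts, a ratio of 435-fold (116 to 25766). The ATP-degrading ectoenzyme Entpd1 was 5.27-fold higher, the cyclooxygenase Ptgs2 2.7-fold and Wfdc17, a secreted whey acidic protein, 25-fold, while Wfdc17 was 2.94-fold lower (2.86 to 3.02) than in control.

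Chemokines had the highest median of the lists, 4.53, or 4.11 with genes at 0 counts set at their bound. Of 16, 14 were called higher and 0 lower, with 7 passing the filter through the alisertib library alone, and over the other 9 the median was 4.23. The neutrophil attractants Cxcl2 (ENSMUSG00000058427, chromosome 5, 90903871 to 90905938, plus strand) and Cxcl3 (ENSMUSG00000029379, chromosome 5, 90786103 to 90789600, plus strand), whose promoters are shown above, stood at 14107, 12401 and 311 CPM and 2442, 2436 and 4.29 CPM and were 45.3-fold higher (44.3 to 46.4) and 566-fold higher (467 to 700). Cxcl1, of the same group, was 50.8-fold higher, the monocyte attractant Ccl2 28.3-fold, Ccl3 18.8-fold and the transmembrane chemokine Cxcl16 40.7-fold. In control the chemokine counts were 13 higher and 0 lower, median 4.12, with Ccl2 44.7-fold higher and Cxcl16 39.5-fold higher than marrow.

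Cytokines and growth factors were 16 higher and 3 lower of 25, with a median of 2.46, and in control 18 higher and 2 lower, median 2.60. Of the 25, 7 passed through alisertib alone, and over the 17 at 1 CPM in both libraries the median was 1.78. Interleukin-1 alpha, Il1a, stood at 352, 417 and 1.3 CPM and was 266-fold higher (189 to 401), and Il1b at 1746, 2535 and 508 CPM was 3.44-fold higher (3.37 to 3.51). Osteopontin, Spp1, stood at 1042, 488 and 11.9 CPM, 87.2-fold higher (77.6 to 98.8) than marrow and 2.14-fold higher (2.09 to 2.19) than control. Vegfa, the endothelial growth factor, was 5.23-fold higher than marrow, Tnf 8.45-fold and Csf1 5.51-fold. In the other direction, the B cell survival factor BAFF, Tnfsf13b, was 29-fold lower (22.9 to 38.1) at 3.13, 3.33 and 91.6 CPM. The acute-phase gene Saa3 (ENSMUSG00000040026, chromosome 7, 46711998 to 46715700, minus strand), which the list of JAK-STAT3 genes holds, had 7338, 12529 and 4 counts and was 1812-fold higher (796 to 7485).

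NF-kappaB feedback genes and targets were 18 higher and 0 lower of 26 (median 1.77, in control 2.05). They included the inhibitor Tnfaip3 at 1124, 1393 and 134 CPM, 8.36-fold higher, Nfkbia 4.95-fold, the precursor subunit Nfkb2 6.67-fold and the survival gene Ier3 14.2-fold. JAK-STAT3 and SOCS genes were 14 higher and 4 lower of 28 (median 1.40, in control 11 higher and 3 lower, median 0.80). Of the 28, 2 passed through alisertib alone, and over the other 26 the median was 1.16. The kinase Jak2 was 4.11-fold higher, its feedback inhibitor Socs3 9.43-fold and the survival gene Bcl2l1 11-fold. Stat3 stood at 612, 680 and 372 CPM and was not called, and Stat5b and the interleukin-6 receptor Il6ra were 4.42-fold and 3.28-fold lower.

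Interferon-stimulated genes were 25 higher and 1 lower of 45, with a median of 1.52 (1.01 in control). Over the 42 at 1 CPM in both libraries the median was 1.39, the other 3 having passed through alisertib alone. Isg15, a ubiquitin-like protein whose promoter is shown above, stood at 325, 202 and 13.7 CPM and was 23.7-fold higher (21.2 to 26.7). The antiviral radical enzyme Rsad2 was 7.65-fold higher at 331, 182 and 43.3 CPM, the GTPase Gbp2 14.8-fold and the membrane tether Bst2 9.78-fold. Cmpk2, a nucleotide kinase next to Rsad2, was 3.37-fold lower (3.1 to 3.67) at 33.7, 26.9 and 113 CPM, opposite to the group. Oas1a had 813, 798 and 1 counts, but close copies can share its reads. Of 14 MHC class II and costimulation genes 7 were higher and 1 lower (in control 7 higher and 2 lower, median 1.42). The presentation genes H2-Aa, H2-Ab1, H2-Eb1 and Cd74 were 7.47-fold, 7.82-fold, 9.4-fold and 5.75-fold higher, while their master regulator Ciita was 4.09-fold lower (2.45 to 7.54) at 0.819, 0.563 and 3.42 CPM. Class II RNA is also carried by macrophages, dendritic cells and B cells, whose marker levels are given above, and their part was not tested. MHC class I genes were 8 higher and 0 lower of 18 (in control 7 higher and 0 lower, median 0.68), with B2m at 1271, 1061 and 539 CPM.

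Immediate early genes (17 higher, 2 lower of 38, in control 23 higher and 1 lower, median 1.36) included Jun at 826, 1434 and 162 CPM and Atf3 at 857, 1260 and 98.8 CPM. Among 32 myeloid transcription factors, 15 higher and 7 lower (in control 16 higher and 7 lower, median 1.13), Cebpb was 3.87-fold higher (3.78 to 3.96) at 1506, 2718 and 389 CPM and the hypoxia-inducible factor Hif1a 5.68-fold higher (5.45 to 5.92) at 643, 1254 and 113 CPM, while Cebpd was 3.85-fold lower (3.69 to 4.02). The family of C/EBP factors thus lay on both sides of marrow. Of the 32 transcription factors, 3 passed the filter through alisertib alone, and the lower share was near the 22.8% over all genes. Among checkpoint and paired receptors, 8 were higher and 11 lower of 27 (in control 9 higher and 9 lower, median -0.46), and the inhibitory receptors Pirb, Clec12a and Vsir were 15.4-fold, 31-fold and 3.37-fold lower. Of these 27, 3 passed the filter through alisertib alone.

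**Figure D4:**
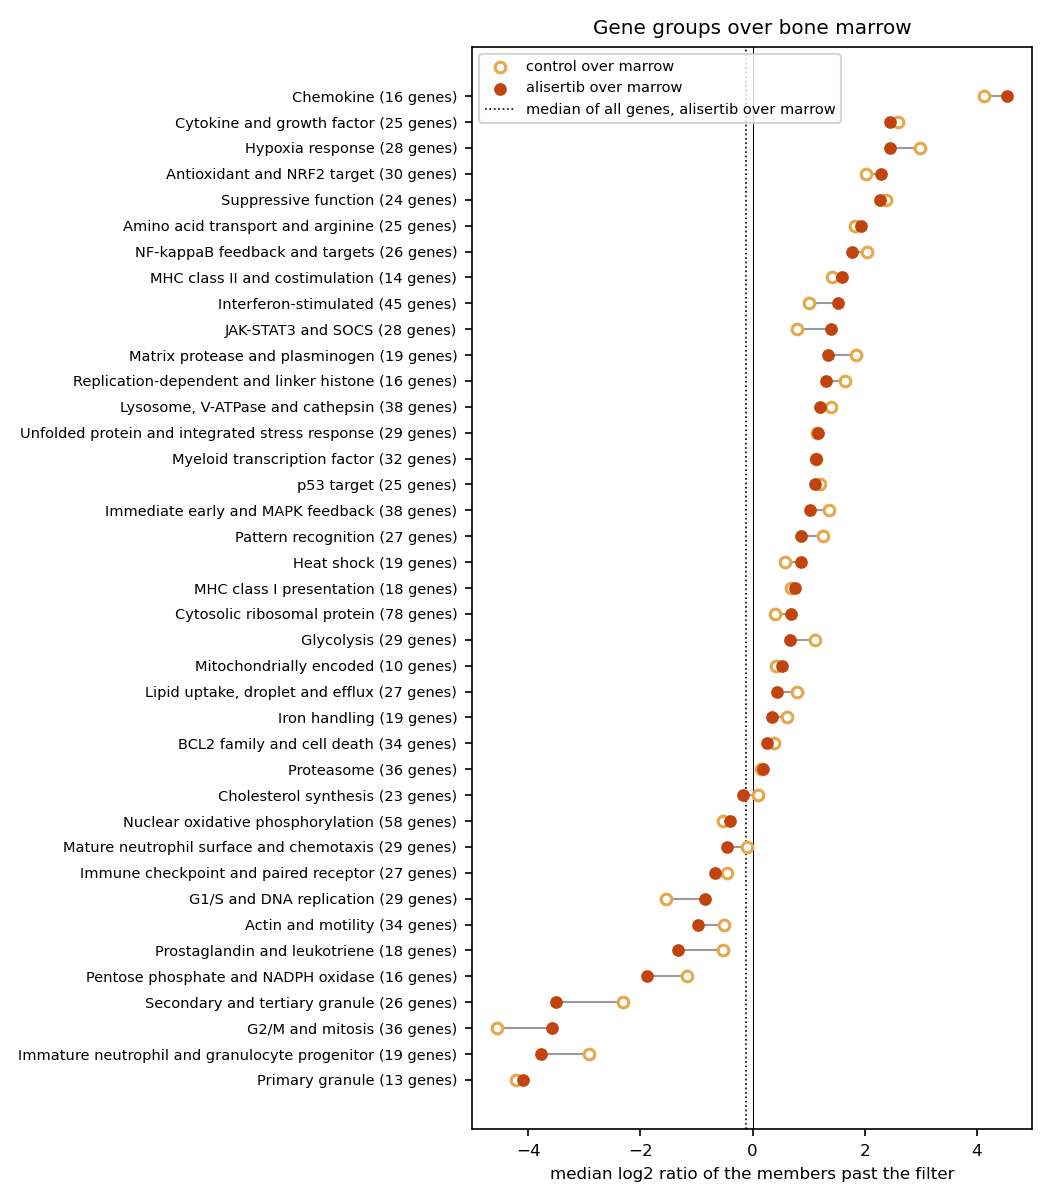
Median log2 ratio over marrow of the members past the filter in each gene list, for the alisertib (filled points) and control (open points) libraries, both over the same marrow library, with the number of genes in parentheses and the median of all genes as a dotted line. Of the lists drawn, which leave out the markers of other cells, the chemokine, cytokine and hypoxia lists are highest and the granule, immature neutrophil and mitosis lists lowest in both.

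Hypoxia response genes were higher, 20 of 28 with 1 lower and a median of 2.45, against 2.99 in control, and 4 passed through alisertib alone. The prolyl hydroxylase Egln3, whose promoter is shown above, stood at 205, 442 and 22.9 CPM and was 8.97-fold higher (8.2 to 9.84). The glucose transporter Slc2a1 stood at 574, 1187 and 67.3 CPM and was 8.54-fold higher (8.1 to 9.01), the oxidoreductase Ero1l 3.68-fold higher (3.53 to 3.84) and the cytokine Mif 65.9-fold higher (55.1 to 80.2). Slc2a3, the transporter with the higher affinity, was the exception, 3.64-fold lower (3.55 to 3.73) at 379, 505 and 1378 CPM. Slc2a1 and Ero1l were 2.07-fold lower (2.02 to 2.11) and 2.36-fold lower (2.31 to 2.42) than in control.

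Glycolysis genes were 10 higher and 5 lower of 29 (median 0.67, in control 15 higher and 4 lower, median 1.11). Over all genes 22.8% were lower, a larger share than in this list. The phosphofructokinase Pfkp was 10.1-fold higher and the lactate dehydrogenase Ldha 2.33-fold, while the hexokinase Hk3, the isomerase Gpi1 and the glycogen phosphorylase Pygl were 2.8-fold, 3.43-fold and 14.2-fold lower. Pentose phosphate and NADPH oxidase genes had no gene called higher, with 11 lower and 0 higher of 16 (median -1.88, in control 0 higher and 9 lower, median -1.17). Cybb, the catalytic subunit of the phagocyte oxidase, stood at 87.6, 125 and 2477 CPM and was 28.3-fold lower (27 to 29.6), Ncf1 was 4.47-fold lower (4.37 to 4.58) and the transketolase Tkt 13.3-fold lower (12.7 to 13.9).

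The antioxidant list, mostly targets of the oxidant-sensing factor NRF2, had 18 higher and 4 lower genes of 30 (median 2.30, in control 2.03). Haem oxygenase 1, Hmox1 (ENSMUSG00000005413, chromosome 8, 75093621 to 75100589, plus strand), stood at 8892, 8333 and 83.9 CPM and was 106-fold higher (101 to 111). Sulfiredoxin, Srxn1, whose promoter is shown above, stood at 610, 424 and 3.81 CPM and was 159-fold higher (130 to 200), and the cystine transporter Slc7a11 at 2834, 2220 and 78.8 CPM was 35.9-fold higher (34.3 to 37.7). The ferritin chains Fth1 and Ftl1, which store iron, were 16.7-fold and 8.12-fold higher. Amino acid transport and arginine genes were 14 higher and 0 lower of 25 (in control 14 higher and 1 lower, median 1.83), with Slc3a2, the partner of Slc7a11, 12.5-fold higher and the polyamine enzyme Odc1 7.89-fold. The median of that list was 1.94, or 1.05 without the 4 genes that passed through alisertib alone.

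Lipid genes were 11 higher and 5 lower of 27 (median 0.44, in control 10 higher and 5 lower, median 0.80). Their lower share was below the 22.8% over all genes. The cholesterol exporter Abca1 stood at 1269, 1285 and 5.38 CPM and was 235-fold higher (198 to 284), Hilpda, which holds back lipid breakdown in droplets, was 274-fold higher (210 to 373) and the droplet coat Plin2 8.56-fold higher (8.3 to 8.82). Prostaglandin and leukotriene genes ran mostly lower, 10 of 18 with 4 higher (median -1.32, in control 4 higher and 8 lower, median -0.53). The leukotriene enzymes Alox5 and Lta4h were 7.88-fold and 13-fold lower, while Ptgs2 and the prostaglandin E synthase Ptges3 were 2.7-fold and 3.18-fold higher. The 5-lipoxygenase activating protein Alox5ap was 2.65-fold lower (2.53 to 2.77) with alisertib, at 121, 309 and 319 CPM.

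Of 29 unfolded protein and integrated stress response genes, 16 were called higher and 0 lower (median 1.16, in control 14 higher and 0 lower, median 1.15). The chaperone Hspa5 was 7.09-fold higher (6.91 to 7.28) at 1992, 1820 and 281 CPM and the phosphatase regulator Ppp1r15a 29.5-fold higher (27.7 to 31.4) at 1315, 1039 and 44.6 CPM. The heat shock genes Hspa1a and Hspa1b were 93.3-fold and 78.5-fold higher than marrow, against 198-fold and 145-fold in control, but are near-identical copies. Hspa1a was 2.12-fold lower (2.03 to 2.21) with alisertib than in control. Of p53 targets 12 of 25 were higher and 2 lower (in control 12 higher and 2 lower, median 1.21). The cyclin-dependent kinase inhibitor Cdkn1a stood at 681, 749 and 13.5 CPM and was 50.4-fold higher (45.1 to 56.7). In the BCL2 family and death list, 13 of 34 were higher and 7 lower (in control 14 higher and 8 lower, median 0.38): the pro-survival Bcl2l1 and the pro-death Bax and Bcl2l11 were 11-fold, 9.68-fold and 13.5-fold higher, and the pyroptosis gene Gsdme was 13.8-fold lower. In that list the lower share was near the 22.8% over all genes.

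Of 34 actin and motility genes 16 were lower and 0 higher (median -0.98, in control -0.51). The actin regulator Coro1a stood at 374, 992 and 2317 CPM and was 6.19-fold lower (6.05 to 6.34), the myosin Myh9 4.68-fold lower (4.62 to 4.75) at 1175, 2513 and 5500 CPM, and thymosin Tmsb4x, which binds free actin, 3.55-fold lower (3.5 to 3.59). Actb was 5.55-fold lower (5.49 to 5.61), though close copies can share its reads. Lysosomal genes were 20 higher and 2 lower of 38 (in control 22 higher and 2 lower, median 1.40), among them cathepsin B, Ctsb, 11.9-fold higher (11.5 to 12.3) at 2442, 2566 and 205 CPM and cathepsin L, Ctsl, 8.99-fold higher (8.38 to 9.65). Ribosomal protein genes were 12 higher and 0 lower of 78 (median 0.69), nuclear oxidative phosphorylation genes 0 higher and 11 lower of 58 (median -0.41), and none of 10 mitochondrially encoded genes was called. Set against the 18.8% called higher and 22.8% called lower over all genes, the ribosomal share was below the first and the oxidative phosphorylation share below the second. Ribosomal genes were included as a gauge of RNA quality, and its part here was not tested.

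Of 19 matrix protease and plasminogen genes, 11 were higher and 5 lower (median 1.35, in control 12 higher and 5 lower, median 1.84), and 5 passed through alisertib alone (median 0.50 over the other 14). Their lower share was near the 22.8% over all genes. The macrophage elastase Mmp12 had no count in marrow and was at least 270-fold higher at 35.1, 42.1 and 0 CPM, and the cross-linking enzyme Tgm2 was 107-fold higher (94.8 to 123), while the granule proteases Mmp8 and Mmp25 were 25-fold and 9.27-fold lower. Outside the lists, the carbonic anhydrase Car4 was at least 346-fold higher and the insulin-like growth factor binder Igfbp6 299-fold higher (141 to 1015). The neural adhesion gene Ncam1 was 222-fold lower (115 to 593) at 0.337, 0.717 and 80.2 CPM, and the dopamine receptor gene Drd2, at no count with alisertib, at least 127-fold lower.

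Some genes were called over or under marrow in both tumour libraries and also differed past the call directly between the tumour libraries. In the secondary and tertiary granule list, 14 of 26 genes were called lower with alisertib than in control. In the B and plasma cell list, 10 of 20 were called higher. Over all genes these shares were 1.12% and 1.83%. The genes named here are examples. Ifitm6, an interferon-induced membrane protein gene, stood at 42.4, 337 and 1136 CPM, Padi4, which converts arginine in histones to citrulline, at 13.9, 76.6 and 746 CPM and Retnlg at 296, 1468 and 4956 CPM, each lowest with alisertib. The B cell genes Cd79a and Ighm stood at 7.18, 0.819 and 23.9 CPM and 21.1, 3.02 and 119 CPM, lowest in control. The sodium pump subunit Atp1b1 also stood lowest in control, at 2.31, 0.0512 and 12 CPM. Tgm1, a transglutaminase, stood at 24.6, 130 and 8.28 CPM, highest in control. Among genes called over marrow in the alisertib library but not in control were the T cell factor Lef1 at 10, 0.307 and 0.347 CPM and the receptor regulator Lrig1 at 12.1, 0.102 and 0.0433 CPM, with direct ratios over control of 30.2-fold higher (14.7 to 89.9) and 95-fold higher (32.5 to 984).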

How the data were processed

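The authors deposited raw read counts per gene and FPKM values (fragments per kilobase, scaled to depth) for 3 libraries. Per the submitters' processing notes, the tools included CASAVA 1.8 and STAR 2.5.1b and the builds mm9 and mm10. How genes were counted, with which annotation and strand setting, is not given in the sources used here, so overlapping genes and close copies are uncertain. Symbols and positions came from GENCODE M21 on GRCm38, which named 19648 of 19723 genes. The alisertib library held 19373087 counts, control 21959748 and marrow 21987097, with TMM factors of 1.07148, 0.88952 and 1.0492 (edgeR 4.0.16, R 4.3.3).

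CPM is the count divided by the scaled library size, times 1000000. Ratios were taken after adding 0.5 to each count, with the exact (Clopper-Pearson) 95% counting interval of the raw counts. A gene was called at a bound of at least 2-fold. Where a library had 0 counts, the fold was taken against 3 counts and is given as "at least". Without molecular identifiers, reads may stem from copies of 1 molecule, so intervals may be too narrow. The procedure was tested on simulated counts. Promoters came from RefSeq on GRCm38.p6. The deposited FPKM values served as an alternative, with pseudocounts of 1 and 0.1, beside other scalings (DESeq2 1.42.0 among them), filters, call bounds and a pseudocount of 5.

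The members and gene lists were chosen with earlier results of these data known. The lists overlap, so their counts are not separate observations. For example, 17 of the 27 genes on the suppressive function list also stood on other lists. Named genes were the 15 higher and 15 lower with the firmest bounds at 10 CPM or more, up to 8 of each of 48 lists, up to 10 per class of difference between the tumour libraries, and a fixed set of myeloid genes, of which some are described and a few are not reported here. Egln3 was added for its promoter.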

Additional observations from a re-analysis of the deposited data

Results flagged for a closer look

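Protein-coding genes present in the deposited FPKM table but not in the count table used here had no place in the comparison. Of them, 4 stood at 3 FPKM or more in the alisertib library and at 10 times marrow or more, a rule chosen after their values were seen. The keratin gene Krt8 was at 6.64 FPKM with alisertib, 5.17 in control and 0.0238 in marrow. The interleukin-36 alpha gene Il1f6 was at 5.25, 4.12 and 0.146 FPKM. The enolase gene Eno2 was at 3.51, 4.24 and 0.00911 FPKM, and the chemokine gene Cxcl14 was at 3.49 and 4.95 FPKM and listed at 0 in marrow. No counts were used for these genes, so the depth behind the values is unknown and no interval is given.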

How the results depend on the processing

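Scaling by total counts, DESeq2 size factors, TMM over 2 libraries or total counts without the most abundant genes moved the median of all genes by -0.04 to 0.03 on the log2 scale. The count of genes higher than marrow was 1457 with a 10 CPM filter, 1519 with 1 CPM required in both libraries and 1126 with a 4-fold bound, and that of lower genes 1250 with the 4-fold bound, each by construction a smaller set. Under the other alternatives both counts stayed within 1.5 times the reported ones. Over all the alternatives, those 3 included, the higher share of called genes ranged from 40.7 to 47.4% around 45.3%. Among named genes called under the reported or the alternative setting, none turned direction. Turns among genes called under neither were not counted. With FPKM plus 1 in place of counts 19 of 383 lost the call and 3 gained it. List medians that turned direction were cholesterol synthesis (0.16 with the 10 CPM filter), eosinophil, basophil and mast cell markers (0.54 over 3 genes with 1 CPM in both), epithelial and tumour cell markers (-3.53 over 1 gene with the 10 CPM filter and -0.95 over 3 genes with 1 CPM in both) and fibroblast markers (-0.25 under either filter). These filters leave fewer genes. Without turning direction, the medians of 14 of the 48 lists moved by 0.5 or more on the log2 scale with FPKM plus 1. The number was 9 with 1 CPM in both libraries, 8 with the 10 CPM filter, 4 with a pseudocount of 5 and at most 1 under the others.

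No paired analysis was possible because each group was 1 library. Depth limits genes near the floor of 3 counts, which was 0.145, 0.154 and 0.130 CPM in the alisertib, control and marrow libraries. Differences between animals, sorts or tumours were not measured, and the interval of a ratio says nothing of them.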

Other observations

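Further gene groups lay on both sides of marrow. Of 16 histone genes 8 were called higher and 1 lower (median log2 ratio 1.31, or 0.81 without the 4 genes that passed the filter through alisertib alone): the linker histones Hist1h1c and H1f0 were 2.36-fold and 2.6-fold higher at 508, 1061 and 216 CPM and 36.4, 37.9 and 14 CPM, and the replication-linked Hist1h4h 15.5-fold higher (9.49 to 29.1), while the damage-marking variant H2afx was 3.16-fold lower (2.77 to 3.62). In the proteasome list 6 of 36 were higher, a share below the 18.8% over all genes, and 0 lower, with the core subunit Psma3 2.78-fold higher (2.55 to 3.04). Heat shock genes were 8 higher and 1 lower of 19, with Hsp90aa1 7.75-fold higher (7.43 to 8.09) and Chordc1 3.36-fold lower (2.8 to 4.09).

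Iron handling genes were 7 higher and 5 lower of 19, the lower share being near the 22.8% over all genes. The phagosomal metal transporter Slc11a1 was 5.34-fold higher (5.17 to 5.52), and Ncoa4, which delivers ferritin for breakdown, was 4.57-fold lower (4.34 to 4.82) at 81.3, 81.8 and 372 CPM. In cholesterol synthesis 6 of 23 were lower, near the 22.8% over all genes, and 0 higher (median -0.17 against -0.12), with the enzyme Hsd17b7 15.8-fold lower (11.3 to 23.3). Genes with the shortest exons, up to 2448 bases in all, had a median log2 ratio of 0.13 and those with the longest -0.24, and the cause was not tested.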
